A study of Mus musculus with 12 samples.

Results

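Bone marrow cells sorted as haematopoietic stem cells were divided by whether any transcript of Mki67 had been counted in them. Mki67, at chr7:135689784-135716361 on the minus strand of GRCm38, encodes a protein that coats mitotic chromosomes and is found in cycling but hardly in resting cells. Wells counted as cells when they held 1000 or more genes and 3000 or more unique molecular identifiers (UMIs, each standing for 1 captured RNA molecule), of which less than 20% were mitochondrial. Of the 423 cells kept from 480 bone marrow wells, 60 had at least 1 UMI of Mki67 and 363 had 0. The whole series held 1020 kept cells. The 2 sides were chosen by their Mki67 UMIs, so Mki67 is left out of every comparison.

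The mice belong to a line built for lineage tracing with heritable barcodes, a background that all cells here share. Nuclei were removed on beads, and the cytoplasmic polyadenylated RNA of 1 cell per well was sequenced from 96-well plates by scSTRT-seq, a method that tags the ends of transcripts. Bone marrow plates 1 to 3 carry the origin code LL731 and plates 4 and 5 the code LL901, while fetal liver plates 1 to 3 carry LL653E1 and plates 4 and 5 LL653E6. The labels call the cells HSC and give no age, sort marker or treatment, and nothing says whether a code is 1 animal or a pool, so that p-values measure the spread between plates. For bone marrow plates 4 and 5 the tissue stands in the title alone. The same 96 well barcodes recur on all 12 plates, as designed barcodes of wells do.

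Adult haematopoietic stem cells are mostly out of the cell cycle. A cell that divides first commits in G1, when D-type cyclins with Cdk4 and Cdk6 free the E2F factors, then copies its DNA in S phase with the Mcm helicase and Pcna, and then makes the spindle, kinetochore and chromosome-condensing proteins of G2 and M phase. The mRNAs of that last group build up late in the cycle and fall once the cell has divided. Their promoters often hold CCAAT boxes, which the factor NF-Y binds.

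The cells with Mki67 made up 6.32, 18.8, 16.9, 16.0 and 13.8% of the kept cells of plates 1 to 5, a mean of 14.4 ± 4.84% (SD, n = 5 plates). Plate 1, where 6 of 95 cells had Mki67, had an exact binomial 95% interval of 2.35 to 13.2%, and plate 2, where 18 of 96 cells had it, one of 11.5 to 28.0%. These intervals overlap, which does not show that the 2 plates have the same share, and they cover counting error only. In 37 of the 60 cells a single Mki67 UMI had been counted, 3 cells had 2, and the highest cell had 157. The 37 cells with 1 UMI stand just inside the limit of the split, and the 363 cells with 0 just outside. Those 37 held between 1.15 and 9.0% of a plate's Mki67 UMIs, and the 19 cells with 5 or more held 94.9% of all 899.

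Cells with Mki67 were also deeper: their median total was between 1.16 and 1.52 times that of the cells without it on the same plate. Each cell with Mki67 was therefore matched to up to 2 cells without it on its own plate whose log10 total lay within 0.15, which left 58 cells with Mki67 and 108 without and median totals between 1.01 and 1.08 times each other. UMIs were summed per plate and side, giving 5 pairs. Levels below are CPM of these sums, counts scaled to a common library total corrected by the trimmed mean of M values (TMM). Kept cells held between 2596681 and 9896449 UMIs per plate, and plate 1 had 18 UMIs per detected gene at the median, against 3 to 5 on the other plates, so 1 UMI does not stand for the same sampling on every plate.

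A small set of mitotic genes was higher in the cells with Mki67. Of 7052 genes tested by edgeR's quasi-likelihood test with the plate as a block, 12 rose (0.170%) and 67 fell (0.950%) at an adjusted p under 0.05, and 381 (5.40%) had an unadjusted p under 0.05. The median log2 fold change of all genes tested was -0.12. The 12 that rose were Hmmr, Cdkn3, Cenpf, Ccna2, Nusap1, Ccnb2, Cdca8, Cenpa, Birc5, Cks2, H2afz and Hmgb2, and all but Cdkn3, Ccna2 and H2afz are on the list of 57 G2 and M phase genes. Of the 67 that fell, 56 have the names Rpl or Rps of ribosomal protein genes. The spread between sums was wide, with a common biological coefficient of variation of 0.901 and 4 residual degrees of freedom.

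The rises of Cks2 and Ccnb2 kept their call without each plate in turn. They were the 2 rises left when genes named Rpl or Rps were taken out of library sizes and tests, a fit that called 0 falls (302 of 7014 genes had an unadjusted p under 0.05). All calls were lost with 1 matched cell in place of up to 2 (0 calls, 283 genes at an unadjusted p under 0.05) and with limma on mean CPM per cell (0 calls, 446 genes at an unadjusted p under 0.05), while DESeq2 called 89 rises and 166 falls. Without the plate block 0 genes were called (200 at an unadjusted p under 0.05). Leaving out plate 3 left 2 rises and 12 falls. Leaving out plates 1, 2, 4 or 5 left 20, 6, 4 or 4 rises and 85, 31, 40 or 44 falls. Plates 1 to 3 alone gave 7 rises and 44 falls, and plates 4 and 5 alone, which are only 2 pairs, 23 and 76.

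The promoters of the genes that rose are shown for 4 of them, because a sequence element was shared. They are the 250 bases before the start that RefSeq gives for each gene on GRCm38.p6, written 5′ to 3′ on the gene's strand, with CCAAT and its reverse complement ATTGG in capitals. Promoters in the table matched 11 of the 12 rises by symbol (Ccna2 is the exception) and 48 of the 67 falls. CCAAT on either strand stood in 9 of the 11 rises, in 13 of the 48 falls, in 37.4% of the 5708 matched promoters of all genes tested and in 34.5% of all 27025 in the table. Hmmr (chr11:40733438-40733687, minus strand) had 5 copies, Ccnb2 (chr9:70421555-70421804, minus strand) and Cdca8 (chr4:124936918-124937167, minus strand) had 3 each, and Cks2 (chr13:51644982-51645231, plus strand) had 2. Rps27 (chr3:90213649-90213898, minus strand), the ribosomal gene with the largest fall, had 0 and is shown for contrast. The Cdca8 window lies inside the span GENCODE gives the gene, chr4:124918465-124939311, and the other 4 lie next to or over the outer end of theirs. Birc5 and Nusap1 were the 2 matched rises with no copy. TTTGAA on either strand, the core of the cell cycle homology region, stood in 3 of the 11 rises and 3 of the 48 falls, against 11.04% of promoters of genes tested and 16.3% of all.
Hmmr: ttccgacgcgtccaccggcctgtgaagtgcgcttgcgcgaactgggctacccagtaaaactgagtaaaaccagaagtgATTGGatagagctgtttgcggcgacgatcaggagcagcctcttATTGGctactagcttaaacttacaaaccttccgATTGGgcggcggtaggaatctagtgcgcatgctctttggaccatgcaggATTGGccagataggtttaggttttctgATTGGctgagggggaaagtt
Ccnb2: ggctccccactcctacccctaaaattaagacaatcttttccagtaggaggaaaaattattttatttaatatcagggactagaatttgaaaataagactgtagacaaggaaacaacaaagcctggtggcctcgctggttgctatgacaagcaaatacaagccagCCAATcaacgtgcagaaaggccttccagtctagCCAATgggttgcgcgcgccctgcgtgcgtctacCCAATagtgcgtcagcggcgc
Cdca8: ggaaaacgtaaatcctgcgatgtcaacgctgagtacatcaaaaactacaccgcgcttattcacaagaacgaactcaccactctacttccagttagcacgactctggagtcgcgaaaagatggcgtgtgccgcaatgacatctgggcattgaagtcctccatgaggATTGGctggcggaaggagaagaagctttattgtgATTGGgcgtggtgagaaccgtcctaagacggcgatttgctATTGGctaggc
Cks2: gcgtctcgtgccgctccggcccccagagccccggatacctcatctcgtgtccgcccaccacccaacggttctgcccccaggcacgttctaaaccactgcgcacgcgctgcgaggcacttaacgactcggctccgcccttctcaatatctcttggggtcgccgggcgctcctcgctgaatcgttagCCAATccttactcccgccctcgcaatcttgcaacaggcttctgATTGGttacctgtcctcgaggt
Rps27: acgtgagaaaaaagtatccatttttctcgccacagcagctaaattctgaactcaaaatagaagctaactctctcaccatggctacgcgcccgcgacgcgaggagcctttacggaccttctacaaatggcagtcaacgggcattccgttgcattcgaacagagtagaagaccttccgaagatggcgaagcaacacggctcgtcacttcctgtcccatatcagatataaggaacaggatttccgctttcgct

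Among regulators of cyclin-dependent kinases, Cks2, a small subunit that binds these kinases, rose. Cks2 had 330.2, 364, 229.8, 684 and 621 CPM in the cells with Mki67 of plates 1 to 5, against 77.2, 91.5, 69.8, 176 and 181 CPM in the matched cells without it, in the order that all values by plate follow. Every plate's value with Mki67 lay above every value without it. The log2 fold change was 1.91 ± 0.24 (SE; adjusted p = 3.72e-04 in edgeR's test, as for all adjusted p-values unless another tool is named), a 3.75-fold difference. SEs are approximate, from the fold change and its F statistic. Ccnb2 had 35.8, 176, 84.9, 298 and 381 CPM with Mki67, against 0.714, 4.59, 2.28, 34.6 and 108 CPM without. Ccnb2, cyclin B2 of the mitotic kinase, was higher with Mki67 on each plate, though plate 5 without Mki67 exceeded plates 1 and 3 with it. Its log2 fold change was 4.03 ± 0.70 (adjusted p = 0.00350).

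Ccna2 had 143, 68.4, 47, 121 and 197 CPM with Mki67, against 5.0, 2.14, 0.379, 37.5 and 15.4 CPM without. Ccna2, cyclin A2 of S phase and mitotic entry, was separated between the sides on all plates, with a log2 fold change of 4.28 ± 1.01 (adjusted p = 0.0446). Its call was lost without plate 2, 3, 4 or 5 (adjusted p = 0.209, 0.138, 0.0964 and 0.328). Cdkn3 had 115, 80.5, 40.0, 97.1 and 186 CPM with Mki67, against 0, 0.612, 0.379, 2.89 and 6.17 CPM without. Cdkn3 encodes a phosphatase that acts on cyclin-dependent kinases, and its sides did not overlap either, with 11 UMIs in all 108 cells without Mki67. Its log2 fold change was 6.25 ± 1.18 (adjusted p = 0.00740), and the call was lost without plate 2, 3 or 5 (adjusted p = 0.0662, 0.0565 and 0.0774). Cdk1 had 237, 209.8, 90.3, 247 and 529.9 CPM with Mki67, against 1.43, 74.4, 37.2, 86.6 and 83.3 CPM without. Cdk1, the mitotic kinase itself, did not overlap between the sides but was not called, at a log2 fold change of 2.39 ± 0.63 (adjusted p = 0.101). Ccnb1, cyclin B1, did not pass the filter on low values: it had 0, 8.55, 0, 81.6 and 71 CPM with Mki67 and 22.9, 0, 0, 7.22 and 8.22 CPM without.

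**Figure D1:**
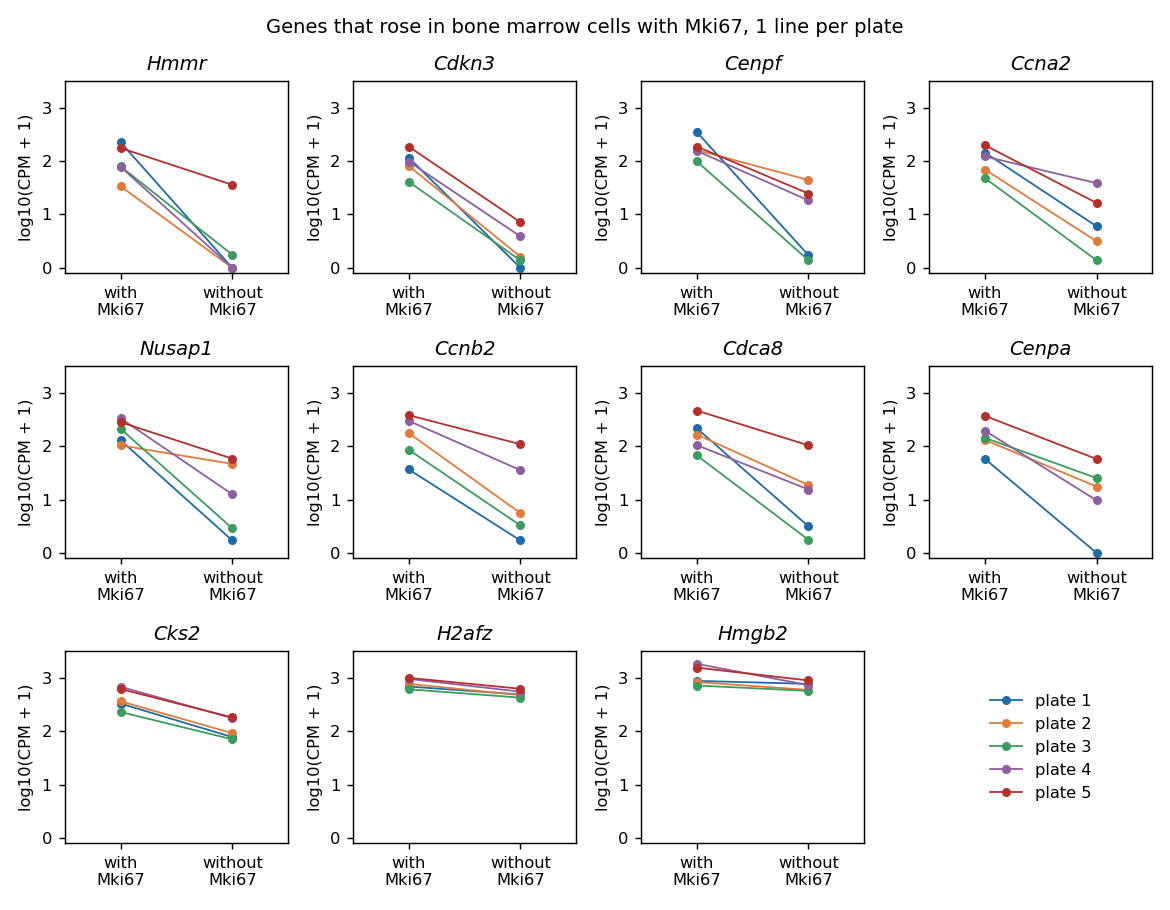
Levels of the 11 genes that rose on all 5 plates, as log10 of CPM plus 1, in cells with Mki67 (left) and matched cells without it (right), 1 line per plate. Lines run downward in all panels, with the steepest for Hmmr and Cdkn3, and the sides of Cks2 are separated on every plate.

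A pair of spindle genes rose, and 1 of them had the largest fold change. Hmmr had 224, 32.7, 78.4, 77.2 and 175 CPM with Mki67, against 0, 0, 0.759, 0 and 34.9 CPM without. Hmmr, a receptor for hyaluronan that also sits on the spindle, was at 0 without Mki67 on plates 1, 2 and 4, and plate 5 without Mki67 exceeded plate 2 with it. At 6.79 ± 1.40, its log2 fold change was called (adjusted p = 0.0163), and the call was lost without plate 2, 3 or 4 (adjusted p = 0.0722, 0.0860 and 0.107). Nusap1 had 129, 103, 211, 333 and 281 CPM with Mki67, against 0.714, 45.6, 1.90, 11.5 and 57.6 CPM without. Nusap1, which bundles spindle microtubules, was separated between the sides, with a log2 fold change of 4.23 ± 0.89 (adjusted p = 0.0190). Its call was lost without plate 3 or 4 (adjusted p = 0.130 and 0.245). Single cells weighed heavily in these sums: 1 cell held 27.0% of the Hmmr UMIs on the side with Mki67 and 91.7% of the 36 on the side without.

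Genes of the centromere and the chromosomal passenger complex rose as well. Cenpa had 57, 130.3, 143, 194 and 369 CPM with Mki67, against 0, 16.5, 24.3, 8.66 and 56.5 CPM without. Cenpa, the histone H3 variant of centromeres, did not overlap between the sides (log2 fold change 3.61 ± 0.75, adjusted p = 0.0166). The call was lost without plate 2, 3, 4 or 5 (adjusted p = 0.0662, 0.0565, 0.159 and 0.208). Cenpf had 349, 160.0, 97.9, 154 and 186 CPM with Mki67, against 0.714, 43.1, 0.379, 17.3 and 23.6 CPM without. Cenpf, a kinetochore protein, did not overlap either (log2 fold change 4.30 ± 0.96, adjusted p = 0.0286), and the call was lost without plate 3, 4 or 5 (adjusted p = 0.123, 0.111 and 0.0620). Cdca8 had 216, 165, 66.5, 104 and 465 CPM with Mki67, against 2.14, 17.7, 0.759, 14.4 and 103 CPM without. Cdca8, borealin of the passenger complex, was higher with Mki67 on each plate, while plate 5 without Mki67 exceeded plate 3 with it. Its log2 fold change was 3.96 ± 0.74 (adjusted p = 0.00681), and the call was lost without plate 3 or 5 (adjusted p = 0.0513 and 0.0815).

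Birc5 had 363, 333, 0, 446 and 563 CPM with Mki67, against 3.57, 109.5, 0, 50.5 and 169.6 CPM without. Birc5, survivin of the same complex, was higher with Mki67 on 4 plates and falls outside the rule for named genes because plate 3 does not list it. Tables list genes with at least 1 UMI on the plate, so a gene not listed counts as 0. edgeR gave a log2 fold change of 2.91 ± 0.62 (adjusted p = 0.0250), and the call was lost without plate 3, 4 or 5 (adjusted p = 0.0565, 0.266 and 0.0586). Top2a had 233, 144, 126, 293 and 385 CPM with Mki67, against 47.9, 78.6, 104, 8.66 and 101 CPM without. Top2a, the topoisomerase that untangles chromosomes, did not overlap between the sides and was not called (log2 fold change 1.91 ± 0.57, adjusted p = 0.202). Spc25, a kinetochore subunit, averaged 182 ± 159 CPM with Mki67 and 31.4 ± 28.2 CPM without (SD, n = 5) and was not called (log2 fold change 2.89 ± 0.72, adjusted p = 0.0699). Over all plates, the sides did not overlap for 41 higher and 43 lower genes of the 7052, 0.581% and 0.610%, and 3.01% of all genes were higher and 5.57% lower on all 5 plates, which is the background for Cks2, Ccna2, Cdkn3, Cdk1, Nusap1, Cenpa, Cenpf and Top2a.

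The 2 remaining rises were small changes of abundant chromatin genes. H2afz had 691, 776, 613, 959.7 and 1004 CPM with Mki67, against 489, 475, 427, 553 and 627 CPM without. H2afz encodes the histone variant H2A.Z, and its sides overlapped across plates although each plate was higher with Mki67. Its fold change on the log2 scale was 0.64 ± 0.13 (adjusted p = 0.0151), and the call was lost without plate 2, 3, 4 or 5 (adjusted p = 0.115, 0.0612, 0.0892 and 0.108). Hmgb2 had 882, 838, 721, 1844 and 1563 CPM with Mki67, against 775, 597, 572, 733 and 897 CPM without. Hmgb2, a DNA-bending protein of dividing cells, showed the same order on each plate with overlap across plates. Its log2 fold change was 0.63 ± 0.14 (adjusted p = 0.0280), and the call was lost without plate 2, 3, 4 or 5 (adjusted p = 0.0833, 0.0612, 0.225 and 0.210). Counted as cells with at least 1 UMI, where H2afz had one in 58 of 58 cells with Mki67 and 106 of 108 without, the log2 fold changes of H2afz and Hmgb2 were -0.06 and -0.08.

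Over the list, 47 of the 57 G2 and M phase genes passed the filter on low values, 9 rose (against 0.170% of all genes), 0 fell, and their median log2 fold change was 1.93, against -0.12 over all genes tested. Members near 0 without Mki67, such as Hmmr, can pass that filter only through the side with Mki67, which raises such a count and median, so they describe the members that passed and not the list. DESeq2 called 19 of them higher. Over all genes 1.53% were higher at an unadjusted p under 0.05, and DESeq2 called 1.26% higher and 2.35% lower, the background for the counts of this kind that follow. Of 46 S phase genes tested edgeR called 0, with 5 higher at an unadjusted p under 0.05, 3 rises in DESeq2 and a median of 0.60. Dut, which clears dUTP and had the smallest p among them, averaged 456 ± 137 CPM with Mki67 and 279.9 ± 96.8 CPM without (SD, n = 5), with a log2 fold change of 0.73 ± 0.21 (adjusted p = 0.184). Pcna, the sliding clamp of DNA polymerases, averaged 314 ± 118 CPM with Mki67 and 234 ± 76.2 CPM without (log2 fold change 0.40 ± 0.36, adjusted p = 0.999), and was lower with Mki67 on plate 1. Of 26 licensing and fork genes edgeR called 0, with 4 higher at an unadjusted p under 0.05, 1 rise in DESeq2 and a median of 0.34, and Rnaseh2b, a subunit of the enzyme that cuts RNA from DNA, stood at 1.01 ± 0.43 (adjusted p = 0.794). Of 24 tested genes on a further list of kinetochore and centromere genes, which leaves out Cenpa and Cenpf, edgeR called 0, with 7 higher at an unadjusted p under 0.05, 6 rises in DESeq2 and a median of 1.41. Of 16 histones with polyadenylated RNA and other chromatin or tubulin genes 1 rose, H2afz, with 6 rises in DESeq2 and a median of 0.37. Members filtered out are not in these counts.

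The number of Mki67 UMIs separated the cells further. After thinning to 20000 UMIs each, which 392 cells had, cells with at least 2 Mki67 UMIs had 27.0 ± 8.99 G2 and M phase genes, cells with 1 UMI 9.75 ± 4.16 and cells with 0 UMIs 7.37 ± 1.81 (means of plate means ± SD, n = 5). All cells with Mki67 together had 16.9 ± 5.56. By plate, cells with 2 or more UMIs averaged 35.0, 22.3, 13.7, 29.6 and 34.3 such genes, cells with 1 UMI 6.33, 6.09, 8.44, 12 and 15.9, and cells with 0 UMIs 5.51, 7.33, 5.85, 8.22 and 9.93. Cells with 1 UMI lay below cells with 0 on plate 2 and above them on the other 4, with a mean difference of 2.38 ± 2.74 genes (SD, n = 5). At least 20 G2 and M phase genes, a limit chosen after the values were seen, were found in 16 of 22 cells with 2 or more UMIs, in 2 of 37 with 1 and in 7 of 333 with 0. These classes come from the split gene, so the values are a description.

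**Figure D2:**
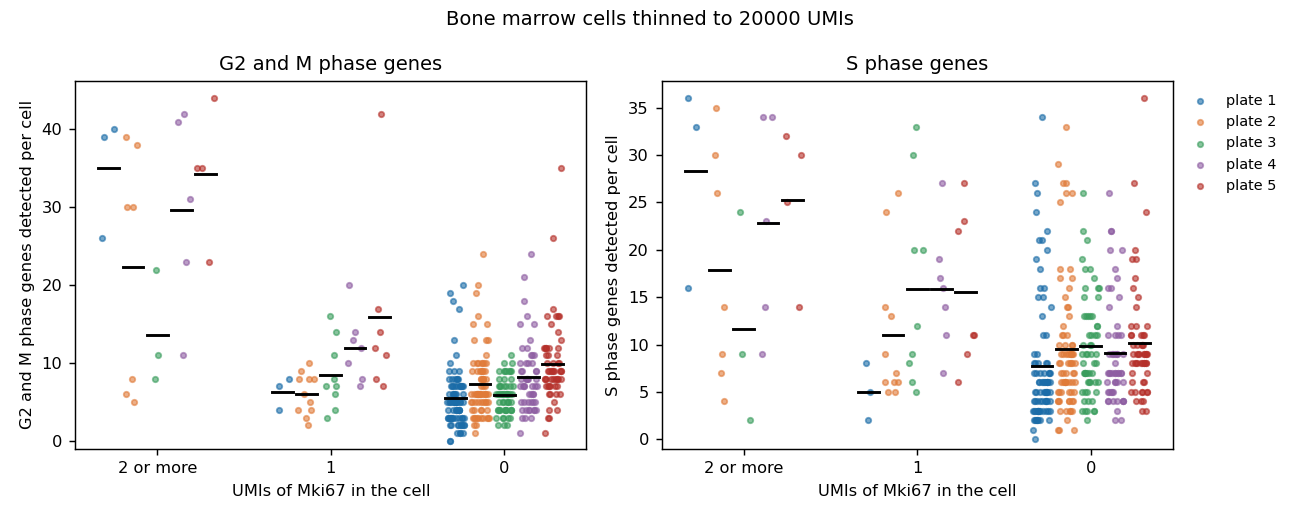
Number of G2 and M phase genes (left) and S phase genes (right) detected in each bone marrow cell after thinning to 20000 UMIs, by the cell's Mki67 UMIs before thinning; points are cells, coloured by plate, and bars are plate means. Most cells with 2 or more UMIs lie above 20 G2 and M phase genes, and cells with 1 UMI overlap those with 0.

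S phase genes numbered 21.2 ± 6.56 in cells with 2 or more Mki67 UMIs, 12.7 ± 4.76 in cells with 1 and 9.26 ± 0.95 in cells with 0. Both lists together gave 33.5 ± 7.69 genes in cells with Mki67 and 16.6 ± 2.51 in cells without, a difference of 16.9 ± 7.27 (SD, n = 5) that was positive on 5 of 5 plates. Without thinning, matched cells had 41.7 ± 5.11 with Mki67 and 28.4 ± 2.96 without. All genes detected at 20000 UMIs numbered 2392 ± 232 in cells with Mki67 and 1925 ± 147 in cells without (SD, n = 5), and the part of this in the results was not tested.

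Fits on the classes gave the following. Cells with exactly 1 Mki67 UMI against matched cells with 0 gave 0 calls among 5439 genes, with 168 (3.09%) at an unadjusted p under 0.05, and a median log2 fold change of -0.05 over 18 G2 and M phase genes, of which 7 were above 0, against -0.20 over all genes in that fit. Cells with at least 2 UMIs gave 12 rises (0.286%) and 15 falls (0.358%) among 4190 genes, with 6 rises among 42 G2 and M phase genes at a median of 2.36, against -0.21 over all genes in that fit. The 3 fits tested different members of the list, so their medians do not stand on a common footing. Hmmr had a UMI in 11 of 21 matched cells with 2 or more Mki67 UMIs, in 0 of 37 with 1 and in 4 of 108 with 0. The count of 0 allows up to 8.11% of such cells to have a UMI, a limit for counting error only that does not bound how many express Hmmr. For Nusap1 these counts were 16 of 21, 7 of 37 and 18 of 108. For Cks2 they were 17 of 21, 22 of 37 and 56 of 108. The fit on cells with 1 UMI was added after the values had been seen, and the difference between the classes was not tested.

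**Figure D3:**
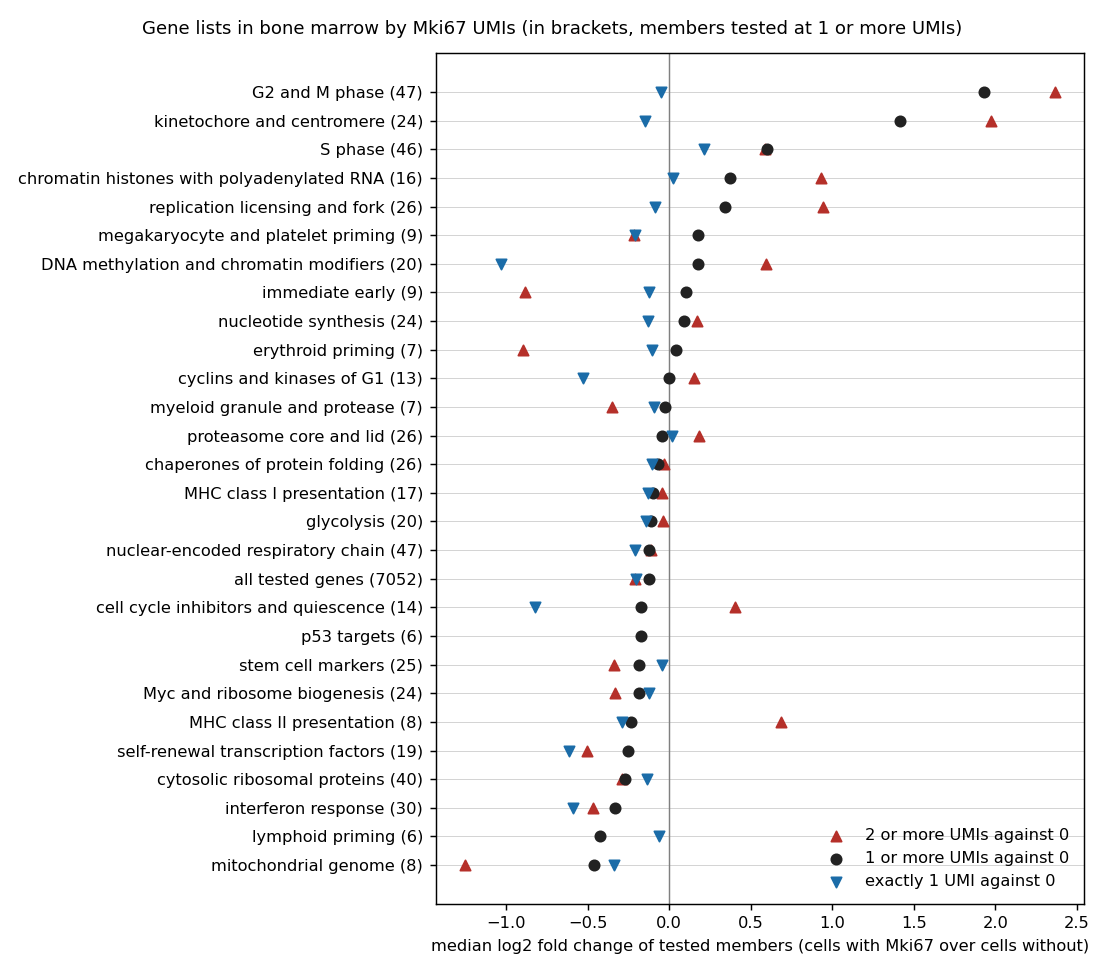
Median log2 fold change of tested members of each gene list in bone marrow, for cells with 2 or more, 1 or more and exactly 1 UMI of Mki67, each against matched cells with 0; the vertical line marks 0. G2 and M phase genes lie at 2.36 and 1.93 for 2 or more and 1 or more UMIs and at -0.05 for exactly 1 UMI, over 42, 47 and 18 tested members, while the medians of all genes in these fits lie at -0.21, -0.12 and -0.20. Cytosolic ribosomal protein genes lie below 0 in each fit and, at exactly 1 UMI, above the median of all genes.

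Ribosomal protein genes were lower in cells with Mki67. Of 84 genes named Rpl or Rps that were tested, 84 had a log2 fold change below 0 and 56 fell (against 0.950% of all genes), with a median of -0.27, against -0.12 over all genes, and called values between -0.36 and -0.21. With RLE size factors 83 were below 0 at a median of -0.24. The median was nearer to 0 with 1 matched cell (-0.17), with limma (-0.12) and at exactly 1 UMI (-0.14). Medians over all genes in these fits were 0.04, -0.06 and -0.20, and they called 0 genes. With cells counted it was -0.085, against -0.0082 over all genes, with 0 calls. That count cannot show a fall of a gene found in every cell. Rps27, for 1, had a UMI in 58 of 58 matched cells with Mki67 and 108 of 108 without. With the mean log2 UMIs per cell as a covariate, fitted on all kept cells without matching, 11 of the 84 were below 0, at a median of 0.31. That fit moved the median of all genes to 0.83 and called 0 genes (541 at an unadjusted p under 0.05). Cells with Mki67 were the deeper ones there, so it does not separate side from depth. Rps27 had 2563, 3275, 2648, 5957 and 4242 CPM with Mki67, against 3286, 4174, 3398, 7779 and 5363 CPM without. Rps27, of the small subunit, was lower with Mki67 on each plate, while the plates differed more than the sides. The log2 fold change was -0.36 ± 0.04 (adjusted p = 6.04e-05), and the call held without each plate. Rpl13, of the large subunit, had a log2 fold change of -0.29 ± 0.03 (adjusted p = 2.99e-04), and Rps24 and Rps19, of the small subunit, -0.31 ± 0.04 and -0.29 ± 0.04 (adjusted p = 3.72e-04 and 3.72e-04). The calls of Rpl30 (-0.36 ± 0.05), Rpl38 (-0.33 ± 0.05) and Rps9 (-0.33 ± 0.05) held without each plate too. Those of Rpl9 (-0.35 ± 0.05), Rps18 (-0.33 ± 0.05) and Rpl19 (-0.33 ± 0.05) were lost without plate 3 (adjusted p = 0.0513, 0.0565 and 0.0710). Ribosomal protein genes have near-identical copies in the genome, and how shared reads were counted is not given in the sources used here.

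As a share of all UMIs, 82 ribosomal protein genes took 17.5, 19.7, 17.5, 28.4 and 22.4% in matched cells with Mki67 of plates 1 to 5, against 18.5, 22.04, 19.7, 32.8 and 26.1% in matched cells without it. The share was lower with Mki67 on 5 of 5 plates, with a mean difference of -2.76 ± 1.33 percentage points (SD, n = 5), although the sides overlapped across plates. Among cells without Mki67 the share tended to be lower in deeper cells. Matched cells with Mki67 still had median totals between 1.01 and 1.08 times those without, and the part of this in the difference was not tested. Cells with at least 2 Mki67 UMIs had 12.5, 16.1, 20.9, 23.1 and 17.9%, and cells with 1 UMI 20.9, 23.3, 16.7, 29.4 and 26.6%. These classes hold all kept cells, so 23 cells with 2 or more UMIs are in them, against 21 in the matched set. They were not matched to each other in depth, and the part of depth in their shares was not tested. On plate 3 alone the cells with 2 or more UMIs had the higher share of these 2 classes. The share in cells with 1 UMI was above that in matched cells without Mki67 on plates 1, 2 and 5. Those cells without Mki67 had been matched to all cells with it and not to this class. In the fit on cells with 1 Mki67 UMI, 40 of 40 listed ribosomal protein genes were below 0 with a median of -0.14, which is nearer to 0 than the median of -0.20 over all genes in that fit, and 0 were called.

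**Figure D4:**
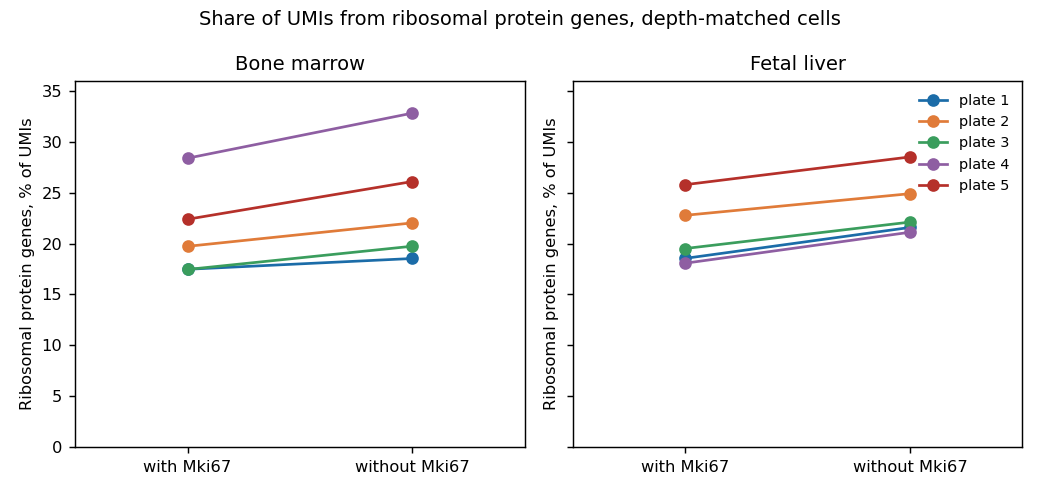
Percentage of UMIs that came from ribosomal protein genes in depth-matched cells with Mki67 (left of each panel) and without it (right), 1 line per plate, in bone marrow and fetal liver. All 10 lines rise toward the cells without Mki67. Matched fetal liver cells with Mki67 stayed deeper, with median totals between 1.15 and 1.42 times those without it.

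The falls lay almost all among the most abundant genes. Of the 100 tested genes with the highest mean CPM, 64 fell and 98 were below 0. Of these 100, 74 are named Rpl or Rps, with a median of -0.28 and 56 falls, and the other 26 had a median of -0.23, with 24 below 0 and 8 falls. Genes ranked 101 to 200 had a median of -0.11 and 1 fall, those ranked 201 to 500 a median of -0.10 and 2 falls, and those ranked 1001 to 2000 a median of -0.04 and 0 falls. The 5052 genes ranked 2001 to 7052 had 0 falls but a median of -0.17, lower than that of the ranks from 101 to 2000. At matched depth, cells with Mki67 also had more genes, 3359 ± 357 against 2838 ± 338 without Mki67 (plate means ± SD, n = 5). How far the wider spread of UMIs over genes accounts for the lower share of abundant ones was not tested.

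Among the 11 falls of genes with other names, 3 were larger. Pim1 had 301, 409.5, 302, 267 and 109 CPM with Mki67, against 765, 657, 617, 434 and 304 CPM without. Pim1, a kinase induced by cytokines, was lower with Mki67 on each plate, with overlap across plates. Pim1 changed by a log2 fold of -1.04 ± 0.19 (adjusted p = 0.00681), and the call was lost without plate 3 (adjusted p = 0.0710). Ccnd2 had 493, 867, 504, 832 and 537 CPM with Mki67, against 1057, 1084, 834, 1482 and 818 CPM without. Ccnd2 encodes cyclin D2, which acts in G1, and was lower on each plate, also with overlap. Its log2 fold change was -0.72 ± 0.12 (adjusted p = 0.00327), and the call was lost without plate 3 (adjusted p = 0.0565). Ramp1 had 377, 469, 400.2, 593 and 374 CPM with Mki67, against 585, 803, 572, 905 and 759 CPM without. Ramp1, a partner of the calcitonin-like receptor, was lower on each plate, and plate 4 with Mki67 exceeded plates 1 and 3 without it. In log2 terms the change was -0.71 ± 0.15 (adjusted p = 0.0156), and the call was lost without plate 2, 3, 4 or 5 (adjusted p = 0.176, 0.0739, 0.0846 and 0.112).

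The other 8 falls were abundant transcripts with changes between -0.33 and -0.21 on the log2 scale. Gas5, a host of small nucleolar RNAs, had a log2 fold change of -0.33 ± 0.06 (adjusted p = 0.00967), and its call was lost without plate 2, 3, 4 or 5 (adjusted p = 0.164, 0.170, 0.0982 and 0.102). Malat1, a nuclear RNA and 1 of 2 tested on that list, stood at -0.28 ± 0.06 (adjusted p = 0.0264) and was higher with Mki67 on plate 1; the call was lost without plate 2, 3, 4 or 5 (adjusted p = 0.598, 0.471, 0.113 and 0.152). B2m, the light chain of MHC class I, stood at -0.23 ± 0.04 (adjusted p = 0.00412), with the call lost without plate 2 or 3 (adjusted p = 0.163 and 0.125). Fau, a fusion of a ubiquitin-like and a ribosomal protein, stood at -0.27 ± 0.05 (adjusted p = 0.00610), with the call lost without plate 2, 3 or 4 (adjusted p = 0.164, 0.181 and 0.0781). Eef1a1, a translation elongation factor, stood at -0.25 ± 0.04 (adjusted p = 0.00211), with the call lost without plate 2 or 3 (adjusted p = 0.0867 and 0.0565). Actb, cytoplasmic actin, stood at -0.21 ± 0.05 (adjusted p = 0.0486), with the call lost without plate 1, 2, 3, 4 or 5 (adjusted p = 0.0528, 0.819, 0.665, 0.101 and 0.0922). The predicted genes Gm10076 and Gm42418 stood at -0.24 ± 0.05 and -0.22 ± 0.05 (adjusted p = 0.0266 and 0.0320), the first call lost without plate 2, 3, 4 or 5 (adjusted p = 0.395, 0.481, 0.365 and 0.0815) and the second without plate 2, 3 or 5 (adjusted p = 0.540, 0.415 and 0.285). Fau, Eef1a1, Actb and both predicted genes fall outside the rule for named genes.

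On the list of G1 cyclins, kinases and their partners Ccnd2 fell, and no other G1 gene was called. Ccna2, which rose, is on that list too but is a cyclin of S phase and mitotic entry. Of the 22 members of that list 13 were tested, 1 rose and 1 fell, with a median of -0.0033. Ccnd1, cyclin D1, had 87.5, 1.51, 35.2, 24.3 and 15.6 CPM with Mki67 and 60.7, 51.1, 138, 57.7 and 22.6 CPM without (log2 fold change -1.48 ± 1.08, adjusted p = 0.999). Cdk6, the D cyclins' kinase, had 33.2, 52.3, 55.7, 70.6 and 35.5 CPM with Mki67 and 206, 97.9, 44.8, 121 and 49.3 CPM without (log2 fold change -0.87 ± 0.72, adjusted p = 0.999). Both were higher with Mki67 on 1 plate. Of the inhibitors and quiescence genes 14 of 27 were tested and 0 called (0 at an unadjusted p under 0.05 and 0 in DESeq2), at a median of -0.17. Cdkn1b (p27) and Cdkn1c (p57), which hold stem cells out of cycle in mice, had low levels: Cdkn1b had 46.4, 21.6, 1.08, 0 and 36.9 CPM with Mki67 and 0, 24.5, 21.6, 0 and 26.7 CPM without, and Cdkn1c 1.33, 22.6, 31.4, 2.21 and 0 CPM with and 1.43, 20.2, 21.6, 40.4 and 27.8 CPM without. Their log2 fold changes, 0.25 ± 2.16 and -1.53 ± 1.76, had SEs larger than themselves. Klf6, a transcription factor with the smallest p on that list and on that of immediate early genes, averaged 21.6 ± 21.1 CPM with Mki67 and 47.2 ± 27.3 CPM without (adjusted p = 0.999).

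Stem cell markers were present on both sides, and no change in them was called. The 30 markers on the list summed to between 1997 and 2892 CPM per plate with Mki67 and between 2429 and 3250.0 CPM without. Of 25 tested, edgeR called 0 (1 at an unadjusted p under 0.05) and DESeq2 0, at a median of -0.18 with 15 below 0. The sign of that median turned with 1 matched cell (0.12), in sums per origin code (0.09), on plates 1 to 3 alone (0.05) and without plate 1 (0.05). In all kept cells without matching the median was -0.69, and with the mean log2 UMIs per cell as a covariate there it was 1.73. Hlf, a transcription factor of stem cells, had 233, 60.4, 204, 203 and 79.6 CPM with Mki67 and 274, 231, 244, 215 and 281 CPM without. It was lower with Mki67 on each plate, with a log2 fold change of -0.85 ± 0.36 that did not pass the test (adjusted p = 0.799). Procr, the protein C receptor used to sort stem cells, had 91.5, 154, 4.87, 68.4 and 61.1 CPM with Mki67 and 35.7, 125, 81.6, 167 and 163 CPM without (log2 fold change -0.93 ± 0.77, adjusted p = 0.999). It was higher with Mki67 on plates 1 and 2 and lower on the other 3. Cd34, a surface marker that separates long-term stem cells from progenitors in mice, stood at -0.39 ± 0.32 (adjusted p = 0.999), and Cd48, a progenitor marker, had a UMI in 5 of 58 cells with Mki67 and 14 of 108 without (log2 fold change -1.30 ± 2.05, adjusted p = 0.999). Of 19 self-renewal transcription factors edgeR called 0 (1 at an unadjusted p under 0.05) and DESeq2 0, at a median of -0.25.

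Lists of growth and metabolism held no other call. Members tested and medians were 24 and -0.19 for Myc and ribosome biogenesis, 24 and 0.09 for nucleotide synthesis, 47 and -0.12 for the nuclear-encoded respiratory chain, 20 and -0.11 for glycolysis, 26 and -0.04 for the proteasome, 26 and -0.07 for chaperones and 20 and 0.17 for DNA methylation and chromatin modifiers. All of these had 0 calls in edgeR. At an unadjusted p under 0.05 there were 6 respiratory chain genes, 1 of glycolysis, 3 chaperones and 0 on the other 4 lists, and DESeq2 called 1 fall, on the last list. The members with the smallest p were Rrp9 (-2.09 ± 1.27), Mthfd2 (2.07 ± 1.12), Cox7b (-0.43 ± 0.14), Aldoa (-0.41 ± 0.14), Psma4 (0.39 ± 0.21), Hsp90ab1 (-0.21 ± 0.07) and Dnmt3a (-2.63 ± 1.29). Their adjusted p-values were 0.999, 0.999, 0.308, 0.391, 0.999, 0.301 and 0.961. The 8 tested genes of the mitochondrial genome all lay below 0 at a median of -0.46 with 0 calls in edgeR and DESeq2 and 0 at an unadjusted p under 0.05, and mt-Cytb averaged 459.8 ± 265 CPM with Mki67 and 535 ± 118 CPM without (adjusted p = 0.999). Among 17 MHC class I genes B2m fell, and 8 class II genes, 30 interferon response genes, 9 immediate early genes and 6 p53 targets had 0 calls in edgeR, at medians of -0.24, -0.33, 0.10 and -0.17. Of these, 6 interferon response genes and 0 others had an unadjusted p under 0.05, and DESeq2 called 1 interferon response gene, a fall. Ifitm1, an interferon-induced membrane protein, was nearest to a call at -0.29 ± 0.07 (adjusted p = 0.0564), while H2-Eb1 and Sesn1 stood at -1.11 ± 0.65 and -1.58 ± 0.78 (adjusted p = 0.999 and 0.972).

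Genes of lineage priming gave 0 calls in edgeR (1 erythroid and 1 myeloid gene at an unadjusted p under 0.05) and 1 fall, of a myeloid gene, in DESeq2: 7 erythroid genes had a median of 0.04, 9 megakaryocyte and platelet genes 0.18, 7 myeloid granule genes -0.02 and 6 lymphoid genes -0.43. Prtn3, a granule protease, averaged 629.8 ± 70.2 CPM with Mki67 and 859.8 ± 108 CPM without (SD, n = 5; log2 fold change -0.45 ± 0.12, adjusted p = 0.118) and was lower on each plate. Hbb-bt, a beta globin, averaged 114 ± 80.3 CPM with Mki67 and 254 ± 119 CPM without (log2 fold change -1.25 ± 0.53, adjusted p = 0.799). Gp5, a platelet glycoprotein, and Cd79b, of the B cell receptor, stood at -1.76 ± 1.45 and -1.31 ± 1.21 (adjusted p = 0.999 and 0.999).

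Markers of other cells were mostly low on both sides, though some stood well above 0. The 16 endothelial and stromal markers in the files summed to between 8.82 and 241 CPM per plate with Mki67 and 25.7 and 160.0 CPM without, with 8 at 0 on both sides, Cdh5, Plvap and Cxcl12 among them, and Pecam1 stood at 0.14 ± 1.63 (adjusted p = 0.999). Emcn had the highest mean on that list, 66.4 CPM with Mki67 and 48.1 CPM without. The 13 markers of T, NK and plasma cells summed to between 9.28 and 163 CPM per plate with Mki67 and 111 and 238 CPM without. Cd3d, Cd8a, Trac and Trbc2 were at 0, and Nkg7 stood at -2.09 ± 1.07 (adjusted p = 0.976). Nkg7 averaged 38.0 CPM with Mki67 and 102.6 CPM without, and Xbp1 56.6 CPM with and 74.1 CPM without. The 10 markers of mature B cells summed to between 0 and 79 CPM per plate with Mki67 and 25 and 87.4 CPM without, with Ms4a1, Cd79a, Pax5 and Cr2 among those at 0. Cd79b averaged 39.1 CPM with Mki67 and 53.9 CPM without. The 14 markers of granulocytes and macrophages summed to between 15.4 and 275 CPM per plate with Mki67 and 16.4 and 235 CPM without, with Ltf, Mmp9 and Csf1r at 0 and Cd68 at -1.49 ± 1.44 (adjusted p = 0.999). On that list S100a8 averaged 78.7 CPM with Mki67 and 24.1 CPM without, and S100a9 8.59 CPM with and 6.10 CPM without. edgeR called 0 of the 6 that were tested on these lists (0 at an unadjusted p under 0.05, 0 in DESeq2), and the part of such cells in the results was not tested. Mitochondrial genes took between 0.0627 and 0.372% of UMIs in matched cells with Mki67 and between 0.101 and 0.266% in those without.

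The same split in fetal liver, in samples the bone marrow rule did not use, called more genes. There 156 of 454 kept cells had Mki67, and of 9572 genes tested 96 rose (1.0%) and 120 fell (1.25%). The fetal liver sums held 150 matched cells with Mki67 and 229 without, against 58 and 108 in bone marrow. Their common biological coefficient of variation was 0.457, against 0.901 in bone marrow, so the numbers of calls do not compare directly. Matched fetal liver cells with Mki67 stayed deeper, with median totals between 1.15 and 1.42 times those without it, so depth was not equal there. Of the 12 bone marrow rises 11 rose in fetal liver too, which is 91.7% of the bone marrow rises and 11.5% of those in fetal liver, and of the 67 falls 64 fell, 95.5% and 53.3%. In fetal liver 37 of 57 G2 and M phase genes and 7 of 48 S phase genes rose, and 37 of 40 listed ribosomal protein genes fell. The 2 tissues have no sample in common.

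Fold changes of single genes ran from alike to far apart. The log2 fold change of Cks2 was 1.91 ± 0.24 in bone marrow and 1.25 ± 0.12 in fetal liver, that of Nusap1 4.23 ± 0.89 and 2.62 ± 0.35, and that of Hmmr 6.79 ± 1.40 and 2.31 ± 0.31. Cdkn3, at 6.25 ± 1.18 in bone marrow, stood at 0.90 ± 0.33 in fetal liver and was not called there (adjusted p = 0.312). Top2a and Cdk1, not called in bone marrow, rose in fetal liver at 2.25 ± 0.26 and 1.24 ± 0.17 (adjusted p = 3.14e-05 and 1.11e-04), and so did Ccnb1 at 1.55 ± 0.21 (adjusted p = 1.46e-04). Rps27 stood at -0.36 ± 0.04 in bone marrow and -0.35 ± 0.03 in fetal liver, and Ccnd2 at -0.72 ± 0.12 and -0.42 ± 0.07. Ramp1 and Pim1 were at 0.07 ± 0.13 and -0.38 ± 0.17 in fetal liver (adjusted p = 0.953 and 0.519).

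The difference between the tissues was tested as an interaction. It called 0 of 10166 genes in edgeR, with 521 (5.12%) at an unadjusted p under 0.05, while DESeq2 called 98. Cdkn3 had an interaction of 5.32 on the log2 scale (unadjusted p = 3.06e-05, adjusted p = 0.311) and Ramp1 one of -0.78 (unadjusted p = 0.00122, adjusted p = 0.865). A gene called in one tissue and not in the other is therefore not shown to differ between them.

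**Figure D5:**
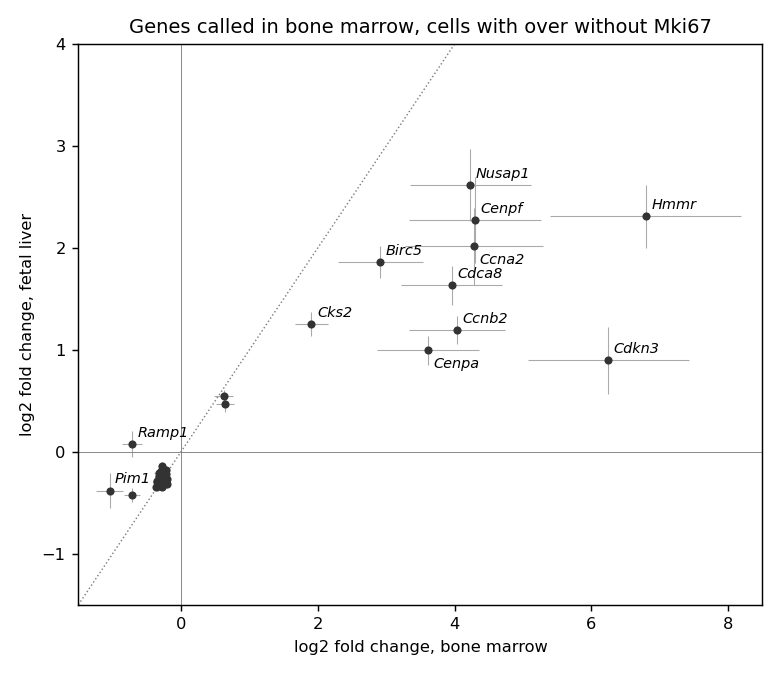
Log2 fold changes of cells with over cells without Mki67 in bone marrow (horizontal) and fetal liver (vertical) for genes called in bone marrow, with bars of 1 SE; the dotted line marks equal changes. The rises lie below the line, Cdkn3 and Hmmr farthest, and the falls, apart from Pim1, Ccnd2 and Ramp1, form 1 cluster near it.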

How the data were processed

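The authors deposited 1 table of UMI counts per plate, with genes in rows and wells in columns; per the submitters' processing notes UMI-tools, SAMtools and featureCounts were used with the mm10 build, and versions, annotation and strand setting are not stated there. Tables list genes with at least 1 UMI on the plate, and 74 of the 7052 genes tested were unlisted on 1 or more bone marrow plates and counted as 0. From these counts, cells were kept, matched and summed as described above. Sums were tested in edgeR 4.0.16 (R 4.3.3) with TMM scaling, its default filter on low counts, the plate as a block and Benjamini-Hochberg adjustment over all genes tested, called under 0.05; the code was tested on simulated data. DESeq2 1.42.0 and limma 3.58.1 (on log2 of mean CPM plus 1) served as alternatives, beside other matching, thinning, scaling, filtering and plate choices. Both sides of a pair come from the same plate, and deviations of the 2 sides of a plate correlated at 0.0295 to 0.0913, each more than with any other plate (at most 0.0329). Genes named are the 12 largest rises and falls among called genes with the same sign on every plate and at least 20 CPM on the higher side, without predicted genes, plus up to 3 called members of each list (otherwise the 1 with the smallest p) and 12 genes of interest; a called gene outside this rule is named as such. A gene that the rule names is not reported here. The members and the gene lists were chosen with earlier results of these data known. Promoters are RefSeq's on GRCm38.p6, and gene spans are from GENCODE M21.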

Additional observations from a re-analysis of the deposited data

Results flagged for a closer look

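In 3 of 50 groups of 5 plates examined, 1 plate stood apart from the other 4 by Dixon's criterion, which chance gives for about 1 in 20 groups. Hmmr stood at 34.9 CPM in the cells without Mki67 of plate 5, and the next plate was at 0.759 CPM; 1 cell held 91.7% of the Hmmr UMIs on that side. Cdca8 stood at 102.8 CPM in the cells without Mki67 of plate 5, and the next plate was at 17.7 CPM. Without plate 5 the log2 fold change of Hmmr was 8.37 in place of 6.79 and remained called (adjusted p = 0.0182, edgeR), and that of Cdca8 was 4.60 in place of 3.96 and was not called (adjusted p = 0.0815). Plate 1 had a median of 18 UMIs per detected gene, and the next plate had 5; without plate 1 there were 20 rises and 85 falls in place of 12 and 67.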

How the results depend on the processing

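Calls were lost altogether (0 genes, 0 G2 and M phase rises and 0 falls on the ribosomal protein list) with 1 matched cell, with mean log2 UMIs per cell as a covariate, with no replicate block, with limma, with cells counted in place of UMIs and with exactly 1 UMI of Mki67. Counting cells cannot show a fall of genes found in every cell, Rps27 among them. The fit with the covariate used all kept cells without matching, where median totals with Mki67 were 1.16 to 1.52 times those without. It therefore does not separate side from depth, and it moved the median log2 fold change of all genes to 0.83. The direction of 43 of 66 named genes turned under it, to Cenpf -0.12, Ccna2 -0.67, Nusap1 -7.82, Ccnb2 -5.33, Hmgb2 -0.047, Pim1 0.78, Ccnd2 2.04, Ramp1 1.11, Rps27 0.49, Rpl30 0.44, Rpl9 0.69, Rps9 0.34, Gas5 0.016, Rps18 0.31, Rpl38 0.57, Rpl19 0.40, Rnaseh2b -2.15, Spc25 -4.28, Klf6 18.63, Rrp9 3.77, Rpl13 0.46, Rps24 0.29, Rps19 0.37, Cox7b 0.54, Aldoa 0.89, mt-Cytb 2.97, Ifitm1 0.015, B2m 0.50, H2-Eb1 9.65, Gp5 14.07, Sesn1 11.97, Nkg7 8.52, Cd68 15.61, Top2a -2.59, Cdk1 -0.94, Cdkn1b -6.58, Cdkn1c 15.34, Cd34 1.54, Cd48 12.33, Actb 0.047, Birc5 -4.41, Eef1a1 0.41 and Gm42418 0.042. Bone marrow calls numbered 168 (42 higher, 126 lower, 18 G2 and M phase genes) in all kept cells, where the median of all genes was -0.36, and 141 (34 higher, 107 lower, 17 G2 and M phase genes) in thinned cells. They numbered 255 (89 higher, 166 lower, 19 G2 and M phase genes) in DESeq2, and 27 were higher with no filter (14 G2 and M phase genes). Of the 12 rises and 67 falls, 12 and 67 were shared with all kept cells, 12 and 66 with thinned cells, 11 and 66 with DESeq2, 11 and 47 with RLE size factors, 12 and 14 with sums per origin code, 8 and 14 with at least 2 UMIs, 4 and 42 with plates 1 to 3 alone, 8 and 61 with plates 4 and 5 alone, 12 and 67 with no filter and 2 and 0 without Rpl and Rps genes. Sums per origin code gave 40 rises (17 G2 and M phase genes) and 20 falls (5 on the ribosomal protein list), at least 2 UMIs of Mki67 gave 27 calls with 15 lower (7), plates 1 to 3 alone 51 calls, 7 higher (4) and 44 lower (16), plates 4 and 5 alone 23 higher, and without genes named Rpl or Rps there were 2 calls, 2 higher (both G2 and M phase genes) and 0 lower. Sums per origin code and plates 4 and 5 alone each rest on 2 pairs, so their counts do not compare with those from all plates. Leaving out 1 plate at a time gave between 14 and 105 calls, 2 to 20 higher, 12 to 85 lower, 2 to 13 G2 and M phase rises and 6 to 33 falls on the ribosomal protein list, and the lowest of each came without plate 3.

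Other directions turned as well, those of the called rises H2afz, Hmgb2 and Birc5 and otherwise those of uncalled genes. With cells counted, H2afz stood at -0.057 and Hmgb2 at -0.084. At exactly 1 UMI, Hmgb2 stood at -0.19 and Birc5 at -0.19. Of the uncalled genes, Cdkn1b turned to -0.55 in all cells and -0.59 in thinned cells. Cd34 turned to 0.098 with 1 matched cell and 0.085 with cells counted, and Cd48 to 0.39 per origin code. At 2 or more UMIs, H2-Eb1 turned to 0.33, Pecam1 to -1.05 and Procr to 0.052. Pcna turned to -0.062 and Cdkn1c to 0.22 on plates 1 to 3, and Pecam1 to -2.29 on plates 4 and 5. At exactly 1 UMI, Spc25 turned to -0.28, Aldoa to 0.022, Pecam1 to -0.018 and Cd34 to 0.28. Without 1 plate at a time, Pecam1 ran between -0.74 and 1.03 and Cdkn1b between -1.02 and 1.57. In fetal liver DESeq2 called 150 rises, the fit with no replicate block 22 genes (22 higher, 0 lower), and the split at 2 UMIs 73 falls; without 1 plate at a time it ran between 134 and 190 calls, 52 to 89 of them higher. The interaction called 98 genes in DESeq2, 6 with no filter and between 0 and 2 without 1 plate, the 2 without bone marrow plate 5. The cause of these changes was not tested. The exactly-1-UMI split, the fit without Rpl and Rps genes and the fetal liver split at 2 UMIs were chosen after seeing the data. The spread between sums, with 1 cell holding up to 34.0% of the UMIs of a sum with Mki67, limits what 5 pairs can resolve.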
